A study of Mus musculus with 17 samples.

Results

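This section describes 34 mouse genes of the glutathione system, the thioredoxin system and the NRF2 response in bulk RNA-seq of purified, cultured astrocytes. The genes were given as a list of symbols. A gene entered when its row in the count table had a mean count of at least 10 over the 17 libraries. All 34 listed symbols were found and all 34 passed, out of 56691 gene rows in the table, of which 17299 reached the same mean. Astrocytes came from the whole brain of C57BL/6 mice at postnatal day 2, without olfactory bulbs and cerebellum, and were isolated by immunopanning. In this procedure a cell suspension passes over dishes that retain CD45+ microglia and macrophages and O4+ oligodendrocyte precursors, and a final dish coated with an antibody against HepaCAM retains the astrocytes. Cultures of 1 experiment received SAG, an agonist of Smoothened and so of the sonic hedgehog pathway, at 500 ng/ml for 3 d from day 3 in vitro (n = 3), or its solvent DMSO (n = 3). Cultures of the other experiment received fibroblast growth factor FGF2 (n = 4) or FGF10 (n = 3) at 50 ng/ml for 7 d from day 2 in vitro, or the buffer PBS (n = 4). All 5 groups grew in serum-free medium with the growth factor HB-EGF and with N-acetyl cysteine, which is a precursor of cysteine and of glutathione, so no group shows these genes without added cysteine.

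Glutathione is a small thiol that astrocytes make from glutamate, cysteine and glycine and export to neurons. *Slc7a11* encodes the cystine importer, *Gclc* and *Gclm* the catalytic and modifier subunits of glutamate-cysteine ligase, and *Gss* the synthase that completes the molecule. Peroxidases (*Gpx*) and transferases (*Gst*) spend it, and *Gsr* restores it with NADPH. Thioredoxins, kept reduced by thioredoxin reductases, serve the peroxiredoxins in the same way. NRF2, the product of *Nfe2l2*, is held in the cytoplasm and marked for degradation by KEAP1 until oxidants or electrophiles modify KEAP1. NRF2 then binds antioxidant response elements near genes such as *Nqo1*, *Hmox1*, *Gclm*, *Srxn1*, *Slc7a11* and *Txnrd1*. Its activity is set largely at the protein level, which mRNA counts do not measure. In the brain this response is known to be stronger in astrocytes than in neurons.

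Libraries held 17481727 to 68342287 counts with a median of 37173676, and they read the 3′ end of each transcript, so that counts do not scale with transcript length and levels of different genes can be compared. Levels are given as CPM, counts scaled to a common library total and so comparable between libraries. Of the 12 astrocyte markers, *Slc1a3* was at 982 CPM or more and *Sox9* at 777 or more in every library, *Aqp4* and *Fgfr3* had medians of 68.8 and 74.8 CPM, *Gfap* ran from 10.9 to 401 CPM, and *S100b* had a median of 7.23 CPM and no counts in 2 libraries. The 12 microglia and macrophage markers summed to at most 6.34 CPM in any library, and *Csf1r*, *Aif1*, *C1qb*, *Trem2* and *Mrc1* were at 0 in all 17. Markers of other cell types were present. The 10 oligodendrocyte lineage markers summed to 349 to 1022 CPM, the 10 neuronal markers to 26.0 to 214 CPM, and the 7 ependymal markers to 70.0 to 499 CPM, most of it *Foxj1*. The 11 libraries of the FGF experiment fell into 2 sets, replicates 1 and 2 and replicates 3 and 4, for which the labels name no batch. Values within the sets are given for some genes, and the other values of this experiment pool the sets.

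A single form of the antioxidant response element was searched in the promoters of the 34 genes, because such elements are the DNA that NRF2 reads. The motif was TGACNNNGC on either strand, in RefSeq windows of 300 bases (250 before and 50 after the annotated start, GRCm38.p6). Windows were given for 29 of the 34 genes, and not for *Gsr*, *Prdx6*, *Gclc*, *Gsta4* and *Hmox1*. A match was present for 7 of the 29 (24.1%), against 14% of the 27025 genes with a window. Per window the shares were 7 of 37 (18.9%) against 12.4% of 32851. The 7 genes were *Nfe2l2*, *Txnrd1*, *Gclm*, *Prdx1*, *Sod1*, *Srxn1* and *Gstm5*. A match describes these letters only, and its absence from a short window says nothing of NRF2 binding there or elsewhere. Sequences that differ from the motif in a single letter were not counted, such as tgagtcagc in the window of *Gstp1*. For 5 of the 7 genes, chosen because the match lay before the annotated start and the piece shown overlaps no exon of the gene itself, the surrounding sequence is shown 5′ to 3′ on the gene's strand, with the match in capitals (for the 4 genes other than *Nfe2l2* it reads on the opposite strand).
Nfe2l2, chr2:75704865-75704913, minus strand: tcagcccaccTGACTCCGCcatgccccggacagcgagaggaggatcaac
Txnrd1, chr10:82859084-82859152, plus strand: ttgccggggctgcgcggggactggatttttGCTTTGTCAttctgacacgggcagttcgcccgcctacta
Gclm, chr3:122245393-122245461, plus strand: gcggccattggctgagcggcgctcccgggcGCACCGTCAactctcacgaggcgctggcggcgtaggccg
Prdx1, chr4:116685436-116685504, plus strand: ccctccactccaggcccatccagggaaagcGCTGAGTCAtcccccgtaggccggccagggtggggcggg
Sod1, chr16:90220676-90220744, plus strand: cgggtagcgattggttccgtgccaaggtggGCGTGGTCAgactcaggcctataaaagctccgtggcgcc

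The match began 240 bases before the start of *Nfe2l2*, 134 before that of *Gclm*, 133 before that of *Prdx1* and 56 before that of *Sod1*. For *Txnrd1*, which has windows at several annotated starts, it began 92 bases before an inner start. The windows at the other starts of *Txnrd1* held no match. In the GENCODE vM21 annotation of the same build, the pieces at *Gclm*, *Prdx1* and *Sod1* overlap no gene. The piece at *Txnrd1* lies in an intron of the longer *Txnrd1* gene, and that at *Nfe2l2* overlaps an exon of *E030042O20Rik* on the other strand. In the data below, *Nfe2l2* and *Txnrd1* were lower in each SAG library than in any DMSO library, as were 8.18% of all genes tested. *Gclm*, *Prdx1* and *Sod1* overlapped between the groups, as did *Srxn1* and *Gstm5*, the other genes with a match. None of these genes was called by edgeR, and they were not tested against one another.

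The antioxidant genes together took 0.465% to 0.741% of a library's counts. Their summed level was 4646 to 5547 CPM in the 6 libraries of the SAG experiment and 5649 to 7697 CPM in the 11 libraries of the FGF experiment. Median levels over the 17 libraries reached 100 CPM or more for 15 genes, 10 to 100 CPM for 16 and less for 3. The 4 most abundant transcripts were *Fth1*, the heavy chain of the iron store ferritin (median 925 CPM, range 728 to 1455), *Gstm1*, a mu-class glutathione transferase (863, range 633 to 1006), *Txn1*, cytosolic thioredoxin (724, range 486 to 3006), and *Sod1*, cytosolic superoxide dismutase (396, range 300.4 to 537). *Prdx2* and *Prdx6* followed at 365 and 346 CPM.

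The 4 with the lowest medians were *Gss* (4.57 CPM, range 0 to 17.9), *Nqo1*, an NADPH-using quinone reductase (5.71, range 0 to 19.9), *Txnrd2*, the mitochondrial thioredoxin reductase (8.08, range 0 to 35.8), and *Prdx3*, the mitochondrial peroxiredoxin (10.1, range 0.371 to 25.5). *Gss*, *Gpx4*, *Txnrd2* and *Nqo1* had no counts in 2, 1, 1 and 3 libraries. Spread followed level: the coefficient of variation within groups, averaged over the 5 groups, had a median of 22.0% for the 15 genes at 100 CPM or more and 63.8% for the 10 genes under 30 CPM. It was smallest for *Gstm1* (10.5%) and largest for *Nqo1* (94.5%). *Gpx4*, the lipid peroxide reductase, is uncertain, since its near copy *Gpx4-ps2* held 3651 counts beside the 11343 of *Gpx4*. The 3′ ends of *Keap1*, *Gclm*, *Gss*, *Gpx8*, *Txnip*, *Prdx2* and *Sod1* overlap a gene on the other strand (*Junb* for *Prdx2*, *Scaf4* for *Sod1*). The strand setting of the counting is not given in the sources used here, so whether reads of these pairs were kept apart is not known.

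**Figure D1:**
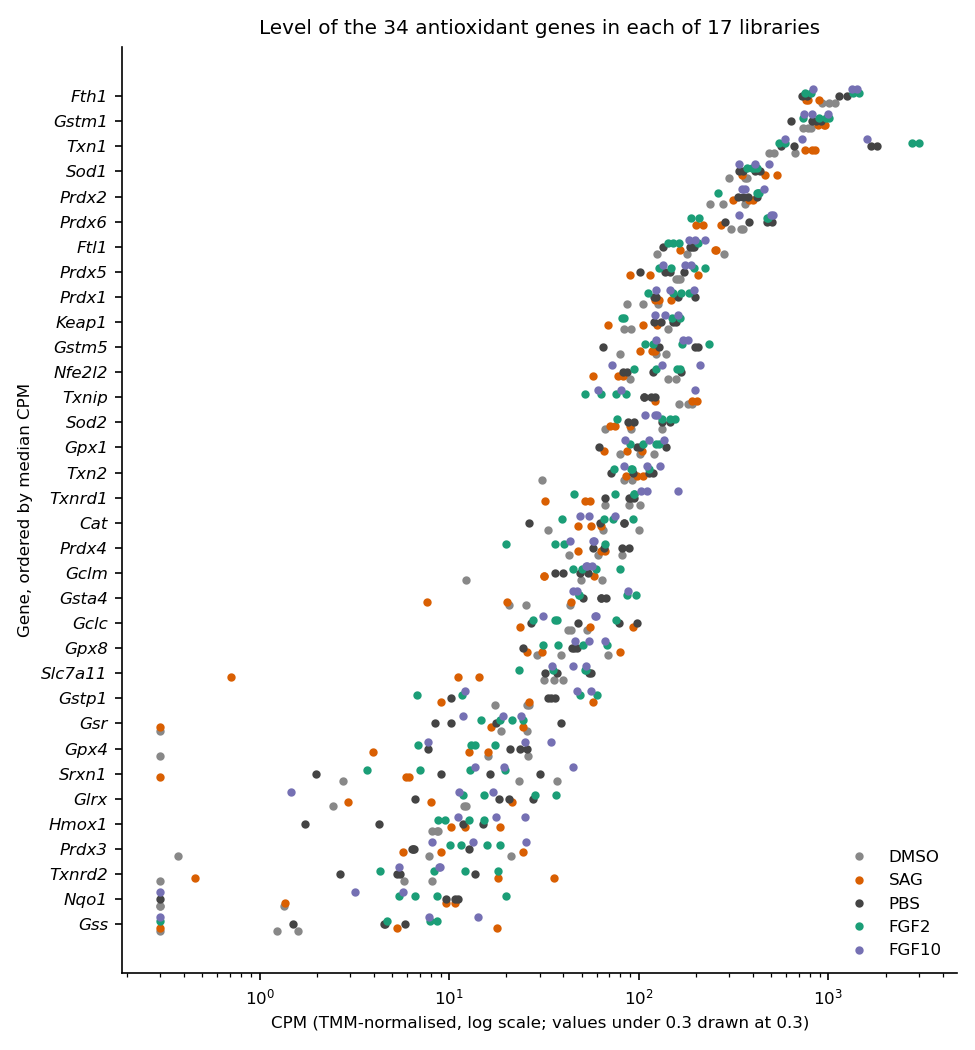
Level of each of the 34 genes (rows, ordered by median) in each of the 17 libraries, in TMM-normalised CPM on a log axis, with values under 0.3 CPM drawn at 0.3 and colour giving the group. Medians run from 4.57 CPM for Gss to 925 for Fth1, and the points of Txn1 split into a group under 1000 CPM and 5 libraries from 1595 to 3006.

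SAG against DMSO asked what activation of the hedgehog pathway for 3 d does to these genes. *Nfe2l2*, *Txnrd1*, *Slc7a11*, *Prdx6* and *Fth1* lay lower in every SAG library than in any DMSO library, while *Txn1*, *Gstm1*, *Nqo1* and *Hmox1* lay higher. The NRF2 targets named above stood on both sides, with *Txnrd1* and *Slc7a11* lower and *Nqo1* and *Hmox1* higher. No direction was shared by the list. No gene of the 34 was called at an adjusted p under 0.05 by edgeR, where 0.0479% of the 12538 genes tested were called higher and 0.016% lower. At an unadjusted p under 0.05 there were 4 of the 34 (*Txn1* higher, *Prdx6*, *Nfe2l2* and *Txnrd1* lower) and 714 of all genes (5.69%). DESeq2 called 1 of the 34, *Txn1*, and 367 of all genes (2.93%). Groups did not overlap for 4 genes that were higher (11.8%, against 5.96% of all genes tested) and 5 that were lower (14.7%, against 8.18%). The median log2 fold change was −0.01 over the 34 genes and −0.02 over all genes tested, with 17 genes above and 17 below 0. With 3 libraries a group, the exact two-sided permutation test cannot go below 0.1. Groups that do not overlap always give that value, so it adds nothing for the 9 genes.

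The regulators came first in the pathway. *Nfe2l2*, on chromosome 2 (chr2:75675513-75704641, minus strand), was at 142, 157 and 89.4 CPM in the DMSO libraries and at 57.2, 82.8 and 77.8 CPM in the SAG libraries. The lowest DMSO value exceeded the highest SAG value, and the means were 129 ± 35.6 and 72.6 ± 13.5 CPM (SD, n = 3 each). The fitted log2 fold change was −0.81 (SE 0.30, adjusted p = 0.68, edgeR). *Keap1*, its inhibitor, was at 106 ± 32.0 CPM with DMSO and 99.9 ± 28.4 with SAG, with overlapping libraries.

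Among genes of glutathione supply, the cystine importer showed the largest separation. *Slc7a11* (chr3:49892526-50443614, minus strand) was at 35.9, 31.5 and 39.8 CPM with DMSO and at 11.2, 14.4 and 0.708 CPM with SAG, from 1741, 1436 and 1508 counts and 391, 967 and 22 counts. Means were 35.7 ± 4.14 and 8.76 ± 7.16 CPM, and the log2 fold change was −2.01 (SE 0.99, adjusted p = 0.962, edgeR), and −1.46 without SAG replicate 3. The genes downstream of the importer overlapped between the groups. *Gclc* was at 46.5 ± 6.14 CPM with DMSO and 57.4 ± 35.1 with SAG, *Gclm* at 41.9 ± 26.6 and 40.4 ± 15.1, and the recycling enzyme *Gsr* at 14.9 ± 13.3 and 13.8 ± 12.4.

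In the thioredoxin system the carrier and its reductase lay on opposite sides. *Txn1* (chr4:57943373-57956411, minus strand) was at 486, 518 and 664 CPM with DMSO and at 849, 753 and 822 CPM with SAG. All 3 SAG libraries exceeded all DMSO libraries, with means of 556 ± 95.2 and 808 ± 49.3 CPM. The log2 fold change was 0.56 (SE 0.17, adjusted p = 0.512, edgeR). DESeq2 gave 0.57 with an adjusted p of 0.00862, the lowest among the alternative settings with every library, and the highest was 0.927 (edgeR). No setting other than DESeq2 called *Txn1* in this comparison. With 1 library left out the adjusted p ran from 0.633 to 0.955 (edgeR). *Txnrd1*, the cytosolic reductase that returns electrons to thioredoxin (chr10:82833951-82897712, plus strand), was at 66.7, 101 and 88.6 CPM with DMSO and at 55.0, 31.9 and 52.1 with SAG. Its means of 85.5 ± 17.4 and 46.3 ± 12.5 CPM gave a log2 fold change of −0.86 (SE 0.36, adjusted p = 0.765, edgeR). *Txnip*, which binds and inhibits thioredoxin, was at 179 ± 14.8 and 172 ± 44.1 CPM and overlapped. Mitochondrial *Txn2* overlapped too, at 68.5 ± 33.0 and 96.3 ± 10.3 CPM.

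Of the 6 peroxiredoxins, only *Prdx6* separated in this comparison. *Prdx6*, which reduces phospholipid peroxides with glutathione (chr1:161240112-161251219, minus strand), was at 308, 346 and 355 CPM with DMSO and at 199.7, 269.8 and 217 with SAG. Means were 336 ± 24.9 and 229 ± 36.5 CPM, and the log2 fold change was −0.53 (SE 0.20, adjusted p = 0.68, edgeR). *Prdx1* to *Prdx5* overlapped, at group means from 9.77 CPM (*Prdx3*, DMSO) to 365 (*Prdx2*, SAG). *Srxn1*, the sulfiredoxin that repairs oxidized peroxiredoxins, was at 2.74, 23.3 and 36.9 CPM with DMSO and at 0.257, 6.16 and 5.89 with SAG. DMSO replicate 1 lay among the SAG libraries, and the log2 fold change of −2.33 had an SE of 1.51 (adjusted p = 1.00, edgeR).

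Quinone, heme and iron genes gave small separations in both directions. *Nqo1* (chr8:107388225-107403206, minus strand) had 0, 61 and 0 counts with DMSO and 377, 91 and 298 with SAG, or 0.446 ± 0.772 and 7.24 ± 5.13 CPM. SAG replicate 2, at 1.35 CPM, hardly exceeded DMSO replicate 2, at 1.34, and the log2 fold change of 4.03 had an SE of 3.11 (adjusted p = 1.00, edgeR). *Hmox1*, heme oxygenase, was at 8.16, 8.58 and 8.70 CPM with DMSO and at 12.1, 18.5 and 10.3 with SAG (log2 fold change 0.71, SE 1.26, adjusted p = 1.00, edgeR). *Fth1* (chr19:9980598-9985098, plus strand) was at 925, 1089 and 1008 CPM with DMSO and at 764, 890.1 and 776 with SAG (log2 fold change −0.29, SE 0.15, adjusted p = 1.00, edgeR). Its partner chain *Ftl1* overlapped at 195 ± 79.4 and 224 ± 51.1 CPM.

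Among glutathione transferases, peroxidases and the enzymes of superoxide and peroxide removal, *Gstm1* alone separated in this comparison. It was at 805, 733 and 777 CPM with DMSO and at 959, 951 and 886 with SAG, a separation of small size (log2 fold change 0.30, SE 0.15, adjusted p = 0.957, edgeR). The other 3 transferases, the 3 peroxidases, *Sod1*, *Sod2* and catalase overlapped between the groups. *Sod1* was at 345 ± 39.2 and 450.4 ± 94.2 CPM, *Sod2* at 96.6 ± 33.0 and 78.6 ± 10.2, and *Cat* at 65.8 ± 33.3 and 55.7 ± 7.82. Marker sums moved in this comparison as well: the neuronal markers summed to 74.0 to 214 CPM with DMSO and 26.0 to 76.0 with SAG, the ependymal markers to 151 to 270 and 70.0 to 160, and the astrocyte markers to 4564 to 4910 and 4028 to 4572. Their part in these differences was not tested, and in bulk RNA fewer cells of a type and less RNA per cell cannot be told apart.

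**Figure D2:**
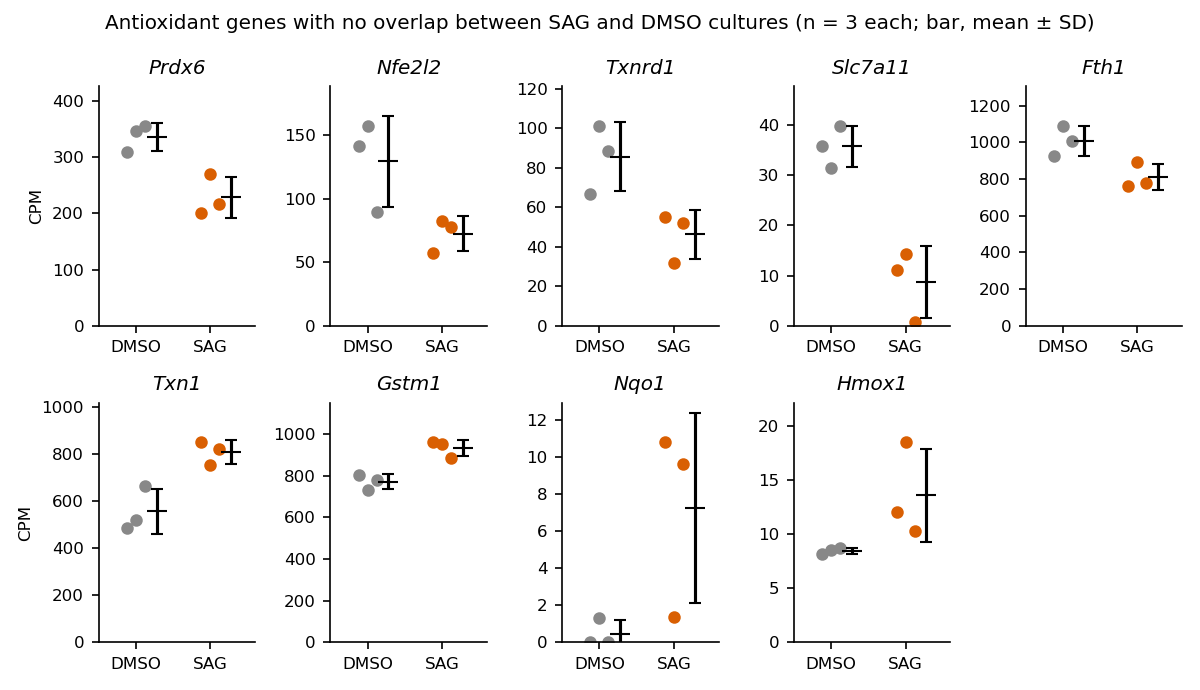
CPM of the 9 genes whose SAG and DMSO libraries did not overlap, as 1 point per library with the mean and SD beside them (n = 3 per group, linear axes from 0). The top row holds the 5 genes that were lower with SAG, from 336 to 229 CPM for Prdx6, and the bottom row the 4 that were higher, from 556 to 808 CPM for Txn1. Nqo1 and Hmox1 rest on levels under 20 CPM.

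FGF2 against PBS asked what 7 d of this growth factor does to the same genes. *Txnip* stood out by lower values in all 4 FGF2 libraries, and *Prdx4* was lower on average. No gene of the 34 was called by edgeR, as was 0% of the 12744 genes tested in either direction. At an unadjusted p under 0.05 there were 2 of the 34 (*Txnip* and *Prdx4*, both lower) and 223 of all genes (1.75%). DESeq2 called 0 of the 34 and 9 of all genes (0.0706%). Groups did not overlap for 0 genes that were higher, against 1.26% of all genes tested, and for 1 that was lower (2.94%), against 1.18%. The median log2 fold change was 0.12 over the 34 genes and 0.00 over all genes, with 23 genes above 0 and 11 below.

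*Txnip* (chr3:96557957-96561883, plus strand) was at 116, 106, 122 and 106 CPM with PBS and at 85.2, 52.1, 75.8 and 63.3 CPM with FGF2. Means were 113 ± 7.70 and 69.1 ± 14.4 CPM (SD, n = 4 each), and the log2 fold change was −0.71 (SE 0.24, adjusted p = 1.00, edgeR). The exact two-sided permutation test of the CPM gave p = 0.0286, the smallest value that 4 against 4 libraries allow. That value follows from the lack of overlap, for which the gene was picked from the list. The difference had the same size in both replicate sets, with means of 111 and 68.7 CPM in replicates 1 and 2 and of 114 and 69.6 in replicates 3 and 4. The gene that overlaps the 3′ end of *Txnip* is *Gm15441*. *Prdx4*, the peroxiredoxin of the endoplasmic reticulum, was at 57.1, 81.5, 88.3 and 65.4 CPM with PBS and at 40.5, 36.3, 66.0 and 20.0 with FGF2. FGF2 replicate 3 overlapped with PBS, and the log2 fold change was −0.85 (SE 0.36, adjusted p = 1.00, edgeR). Means of PBS and FGF2 were 69.3 and 38.4 CPM in replicates 1 and 2 and 76.9 and 43.0 in replicates 3 and 4.

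Ependymal markers summed to 196 to 382 CPM with PBS and 84.3 to 339 with FGF2, and endothelial or mural markers to 82.9 to 314 and 41.0 to 230. In replicates 1 and 2 the ependymal sums were 374 and 382 CPM with PBS and 339 and 325 with FGF2. In replicates 3 and 4 they were 196 and 237 with PBS and 125 and 84.3 with FGF2. The endothelial or mural sums were 314 and 312 against 158 and 230 in the first set, and 82.9 and 98.7 against 55.8 and 41.0 in the second. Oligodendrocyte lineage markers moved in different directions in the sets. In replicates 1 and 2 they summed to 867 and 821 CPM with PBS and 1022 and 955 with FGF2. In replicates 3 and 4 the sums were 711 and 729 with PBS and 349 and 476 with FGF2. The part of other cell types in the values of *Txnip* and *Prdx4* was not tested.

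Genes of the NRF2 response showed no separation between FGF2 and PBS. *Nfe2l2* was at 114 ± 38.6 CPM with PBS and 135 ± 32.7 with FGF2, *Keap1* at 140.4 ± 17.6 and 119.7 ± 43.5, and *Slc7a11* at 45.0 ± 12.2 and 40.7 ± 14.1. *Gclc* was at 63.0 ± 31.6 and 44.3 ± 21.7 CPM, *Gclm* at 44.7 ± 8.08 and 58.6 ± 15.3, and *Txnrd1* at 85.2 ± 12.7 and 77.4 ± 23.2. *Nqo1* was at 7.87 ± 5.28 and 10.1 ± 6.65 CPM, *Hmox1* at 8.25 ± 6.29 and 11.6 ± 3.05, and *Srxn1* at 14.4 ± 12.1 and 10.8 ± 6.99. The difference of the means was smaller than the larger of the 2 SDs for each of these genes. The values pool the replicate sets, so the SDs also hold differences between the sets. Means of *Srxn1* and *Gclc* were 3.38 and 2.00 times as high in replicates 1 and 2 as in replicates 3 and 4.

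FGF10 against PBS gave 1 gene without overlap, the thioredoxin reductase. *Txnrd1* was at 66.5, 90.8, 88.7 and 94.6 CPM with PBS and at 102, 162 and 111 CPM with FGF10. Means were 85.2 ± 12.7 (n = 4) and 125 ± 32.2 CPM (n = 3), and the log2 fold change was 0.55 (SE 0.27, adjusted p = 1.00, edgeR). The exact two-sided permutation test gave p = 0.0571, the smallest value that 4 against 3 libraries allow. It only restates the lack of overlap, for which the gene was picked from the list. Means of PBS and FGF10 were 78.7 and 132 CPM in replicates 1 and 2, and 91.7 and 111 in replicates 3 and 4, where FGF10 has 1 library. No gene of the 34 was called by edgeR, as was 0% of the 13309 genes tested in either direction. At an unadjusted p under 0.05 there were 0 of the 34 and 305 of all genes (2.29%). DESeq2 called 0 of the 34 and 37 of all genes (0.278%). Groups did not overlap for 1 gene that was higher (2.94%), against 2.82% of all genes tested, and for 0 that were lower, against 1.98%. These shares are near those of all genes. The median log2 fold change was 0.11 over the 34 genes and 0.00 over all genes, with 24 genes above 0 and 10 below. PBS has 2 libraries of each replicate set, while FGF10 has 2 of replicates 1 and 2 and 1 of replicates 3 and 4. Differences between the sets therefore enter these fold changes.

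*Txnip* did not separate with FGF10, where it was at 60.6, 80.2 and 197 CPM. Replicates 1 and 2 lay within the range seen with FGF2 and replicate 3 above every PBS library. *Hmox1* was at 25.1, 11.1 and 17.6 CPM with FGF10 and *Srxn1* at 45.2, 19.5 and 13.7, both overlapping with PBS. *Nfe2l2* was at 209, 132 and 72.1 CPM and *Slc7a11* at 34.8, 45.0 and 52.9. *Nqo1* was at 5.71 CPM or less in the 3 libraries, with 83, 277 and 1 counts. Since FGF2 and FGF10 share the 4 PBS libraries, their changes are not independent of each other, and the difference between the factors was not tested.

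PBS against DMSO sets the levels of the genes between the vehicle cultures of the experiments, which differ in vehicle, in days in vitro (9 and 6) and in experiment, and these cannot be told apart. *Txnip* was lower and *Gsta4* higher in every PBS library than in any DMSO library, and *Txn1* was higher on average. No gene of the 34 was called by edgeR, as was 0% of the 13271 genes tested in either direction. At an unadjusted p under 0.05 there were 3 of the 34 (*Txn1* and *Gsta4* higher, *Txnip* lower) and 580 of all genes (4.37%). DESeq2 called 0 of the 34 and 126 of all genes (0.949%). Groups did not overlap for 1 gene that was higher (2.94%), against 2.92% of all genes tested, and for 1 that was lower (2.94%), against 3.5%. Both shares are near those of all genes. The median log2 fold change was 0.29 over the 34 genes and 0.02 over all genes, with 24 genes above 0 and 10 below.

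*Txnip* was at 163, 192 and 181 CPM with DMSO against 106 to 122 with PBS, with means of 179 ± 14.8 and 113 ± 7.70 CPM. The log2 fold change was −0.65 (SE 0.21, adjusted p = 1.00, edgeR). *Gsta4*, an alpha-class transferase that conjugates the lipid peroxidation product 4-hydroxynonenal, was at 20.6, 43.6 and 25.4 CPM with DMSO and at 50.6, 63.0, 67.4 and 63.2 with PBS. Means were 29.9 ± 12.1 and 61.0 ± 7.26 CPM, and the log2 fold change was 1.05 (SE 0.39, adjusted p = 1.00, edgeR). *Txn1* averaged 556 ± 95.2 CPM with DMSO and 1174 ± 654 with PBS (log2 fold change 1.10, SE 0.36, adjusted p = 1.00, edgeR). PBS replicates 1 and 2, at 659.6 and 562 CPM, lay within the DMSO range and replicates 3 and 4, at 1799 and 1676, far above it, so the average lay outside both sets. The oligodendrocyte lineage markers summed to 524 to 693 CPM with DMSO and 711 to 867 with PBS, without overlap, and 8 of the 9 of them that were tested had a log2 fold change above 0. Their part in these differences was not tested.

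**Figure D3:**
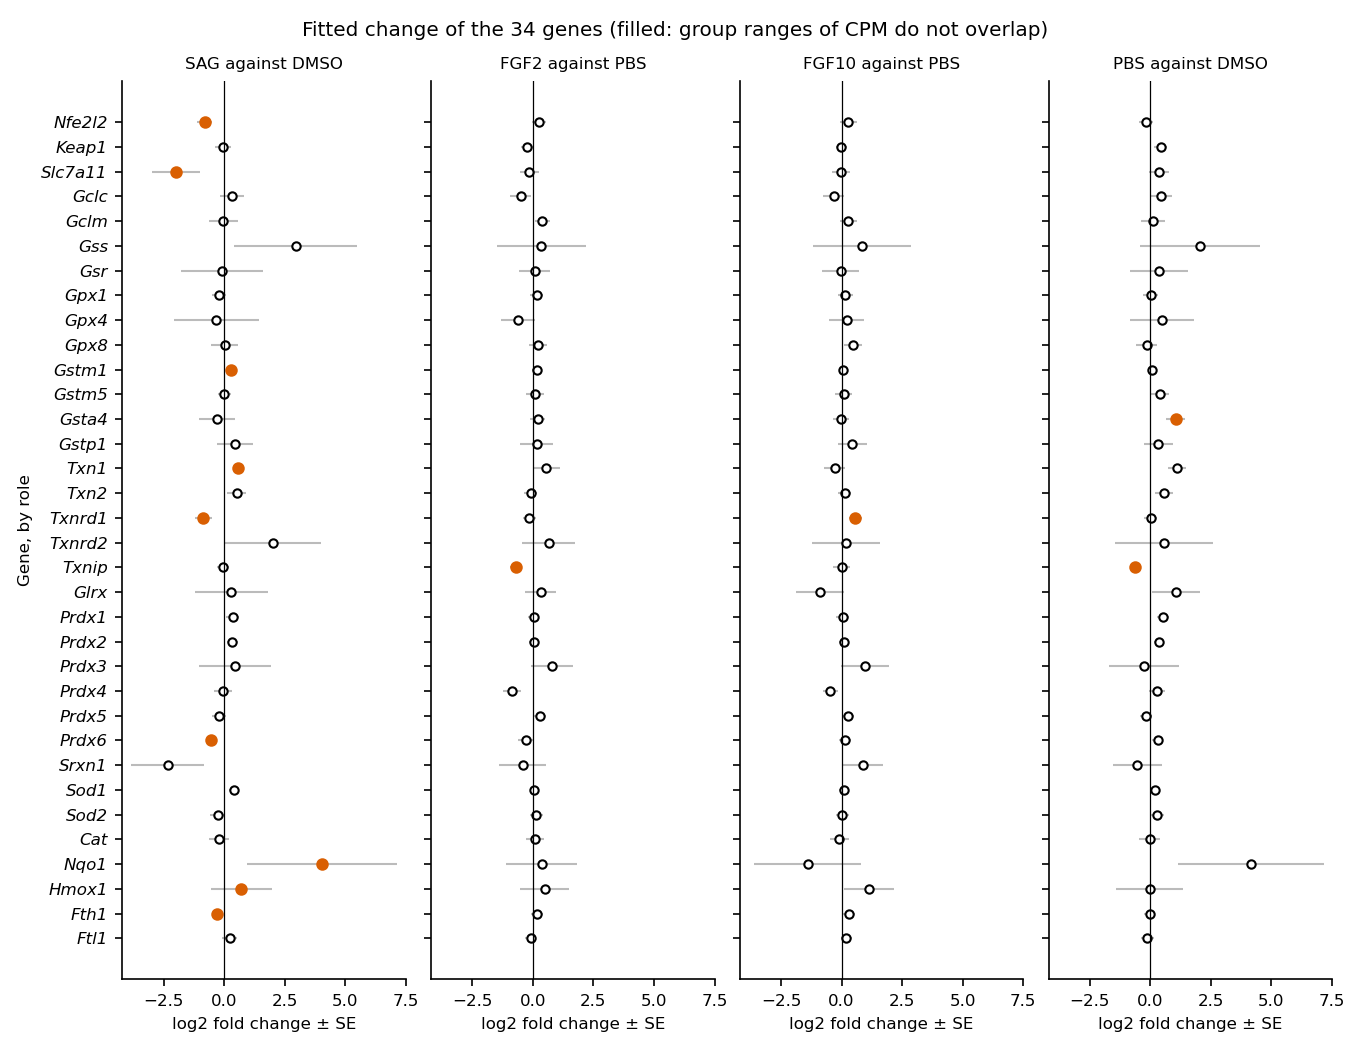
Fitted log2 fold change (x axis, with its SE as a bar) of each of the 34 genes, ordered by role, in the 4 comparisons. Filled points mark genes whose group ranges of CPM do not overlap: 9 for SAG against DMSO, 1 each for FGF2 and FGF10 against PBS, and 2 for PBS against DMSO. The widest bars belong to genes of low level such as Nqo1, Gss and Txnrd2.

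*Txn1*, *Prdx6* and *Fth1* separated the replicate sets of the FGF experiment, whatever the treatment. *Txn1* was at 550.4 to 724 CPM in the 6 libraries of replicates 1 and 2 of PBS, FGF2 and FGF10 and at 1595 to 3006 CPM in the 5 libraries of replicates 3 and 4. Means were 612 ± 66.5 and 2168 ± 665 CPM, a ratio of 3.54, which ranked 301 from the top among 14553 genes. *Txn1* made up 9.38% to 11.7% of the summed level of the 34 genes in the first set and 25.2% to 39.1% in the second. Without it, the other genes summed to 4989 to 5720 CPM in the first and 4337 to 4734 in the second. The sets were noticed in the data, so the contrast is described with no test.

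*Prdx6* and *Fth1* ran the other way. *Prdx6* averaged 491 ± 15.6 CPM in replicates 1 and 2 and 280 ± 82.5 in replicates 3 and 4, which did not overlap and were lowest with FGF2 at 207 and 189 CPM. *Fth1* averaged 1324 ± 117 and 780 ± 42.6 CPM, ratios of 1.75 for *Prdx6* and 1.70 for *Fth1*. Among all genes, 2.51% did not overlap and were higher in replicates 3 and 4, against 1 of the 34 (2.94%), and 2.3% were lower, against 2 of the 34 (5.88%). Other genes differed in mean and overlapped between the sets when the 3 groups were pooled. *Srxn1* averaged 24.0 ± 11.9 CPM in replicates 1 and 2 and 7.09 ± 4.63 in replicates 3 and 4, *Glrx*, a glutaredoxin that uses glutathione to reduce mixed disulfides, 11.1 ± 6.67 and 25.6 ± 8.10, and *Gstm5* 119 ± 34.4 and 197 ± 24.7.

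For *Txn1* the order of the treatments differed between the sets. In replicates 3 and 4, *Txn1* averaged 2886 CPM with FGF2, 1737 with PBS and 1595 in the single FGF10 library, while in replicates 1 and 2 it averaged 571, 611 and 656. *Prdx6* averaged 198 CPM with FGF2 and 333 with PBS in replicates 3 and 4, and 479 and 488 in replicates 1 and 2. These are means of 1 or 2 libraries and were not tested. The marker sums moved with the sets: neuronal markers summed to 129 to 190 CPM in replicates 1 and 2 and 27.1 to 47.3 in replicates 3 and 4, endothelial or mural markers to 158 to 355 and 41.0 to 98.7, ependymal markers to 325 to 499 and 84.3 to 237, oligodendrocyte lineage markers to 821 to 1022 and 349 to 792, and astrocyte markers to 5026 to 5981 and 3716 to 4196. *Cldn5* and *Vtn*, defining markers of endothelial cells and of pericytes, were at 0 in all 17 libraries, and *Slc17a7* and *Slc17a6*, of glutamatergic neurons, likewise. Other markers of both lists were present, with *Acta2* at 41.0 to 315 CPM, *Pdgfrb* at up to 64.7, *Kdr* at up to 14.5, *Tubb3* at 5.46 to 100.3, *Gad2* at up to 45.6 and *Rbfox3* at up to 45.2. The part of other cell types in the contrast was not tested.

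**Figure D4:**
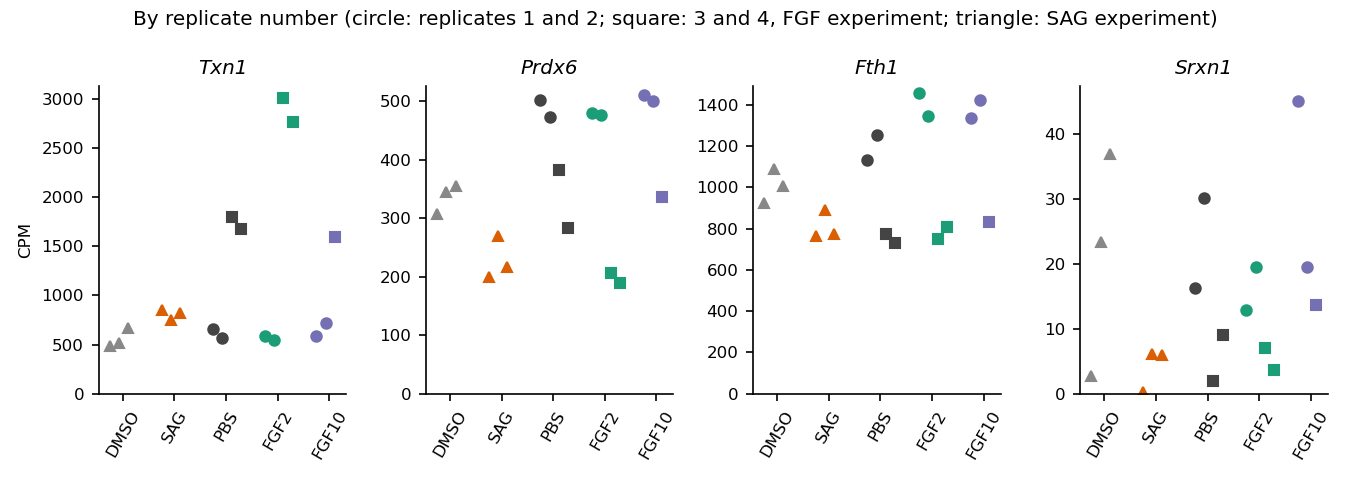
CPM (y axis, linear from 0) of Txn1, Prdx6, Fth1 and Srxn1 in each library of the 5 groups, with circles for replicates 1 and 2 and squares for replicates 3 and 4 of the FGF experiment and triangles for the SAG experiment. Squares lie above circles for Txn1 (1595 to 3006 against 550.4 to 724 CPM) and below them for Prdx6 and Fth1, in each of the PBS, FGF2 and FGF10 groups, while for Srxn1 they lie below the circles within each group but overlap with those of other groups.

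Group means of the remaining genes differed by various amounts over the 5 groups. *Gss* ran from 1.02 CPM (DMSO) to 7.78 (SAG) and *Txnrd2* from 4.62 (DMSO) to 18.1 (SAG), both with single libraries at or near 0. Group means of *Gpx1*, the main cytosolic glutathione peroxidase, were 85.4 to 111 CPM, those of *Gpx8*, an endoplasmic reticulum peroxidase, 40.5 to 55.7, and those of *Gpx4* 10.9 to 22.4. Transferase *Gstp1* was at 23.2 to 38.5 CPM with single libraries from 6.74 to 59.9. Group means of *Prdx1* were 106 to 155 CPM, of *Prdx2* 293 to 392, of *Prdx5*, which also acts in mitochondria and peroxisomes, 137 to 173, and of *Prdx3* 8.04 to 15.6. *Sod2*, the mitochondrial dismutase, was at 78.6 to 128 CPM, and catalase *Cat* at 55.7 to 67.6. The ferritin light chain *Ftl1*, at 166 to 224 CPM, stood below the heavy chain in each of the 17 libraries.

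A further 93 genes that work beside the 34 were taken as 6 lists: partners and competitors of NRF2, other NRF2 target genes, enzymes that supply NADPH, other glutathione transferases, other peroxidases, glutaredoxins and a dismutase, and genes of glutathione breakdown, cysteine supply and export. None was called by edgeR in any comparison, of 64 to 70 that passed the filter on low counts. With SAG the median log2 fold change was 0.41 over the 14 other NRF2 targets tested (11 above 0), 0.32 over 9 genes of NADPH supply, 0.26 over 13 other transferases, 0.04 over 12 other peroxidases, glutaredoxins and dismutase, 0.04 over 10 partners of NRF2 and −0.38 over 6 genes of breakdown, cysteine supply and export. The list medians ran from −0.09 to 0.21 with FGF2, from −0.18 to 0.05 with FGF10 and from −0.22 to 0.67 for PBS against DMSO, the last being the other NRF2 targets (9 of 14 above 0). With SAG, 9 of the 64 tested (14.1%) were higher without overlap and 2 (3.12%) lower, beside the 5.96% and 8.18% of all genes. An unadjusted p under 0.05 (edgeR) was found for 5 of the 64, beside 5.69% of all genes. At an unadjusted p under 0.05 (edgeR) there were 0 of 70 with FGF2 and 0 of 68 with FGF10, beside 1.75% and 2.29% of all genes. None of these genes lay without overlap. Of all genes, 1.26% were higher without overlap and 1.18% lower with FGF2, and 2.82% and 1.98% with FGF10. In lists of this size, 0 is not far from these shares. For PBS against DMSO, 4 of 67 (5.97%) were higher without overlap and 2 (2.99%) lower, beside 2.92% and 3.5% of all genes. An unadjusted p under 0.05 (edgeR) was found for 5 of the 67, beside 4.37% of all genes.

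*Idh1*, the cytosolic isocitrate dehydrogenase that makes NADPH, had the lowest p of its list in the SAG comparison. It was at 47.6, 79.5 and 56.1 CPM with DMSO and at 136, 128 and 132 with SAG, means of 61.1 ± 16.5 and 132 ± 4.15 (adjusted p = 0.405, edgeR). In the PBS libraries it averaged 138 ± 56.8 CPM. *Ephx1*, an epoxide hydrolase and NRF2 target, was at 79.5, 71.3 and 36.4 CPM with DMSO and at 136, 192 and 119 with SAG (means 62.4 ± 22.9 and 149 ± 38.3, adjusted p = 0.425, edgeR). It averaged 114 ± 9.29 CPM with PBS.

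In the 4 remaining lists the lowest p with SAG belonged to *Nfe2l1*, a relative of NRF2 (41.8 ± 7.84 CPM with DMSO, 67.4 ± 21.1 with SAG), *Slc3a2*, the partner chain of the cystine importer (183 to 218 and 245 to 258), *Hmox2*, the constitutive heme oxygenase (18.8 ± 7.27 and 45.0 ± 25.2), and *Gstt2*, a theta-class transferase (5.07 ± 5.93 and 0 in each of the 3 SAG libraries). *Slc3a2* thus lay higher with SAG in each library while *Slc7a11*, with which it forms the importer, lay lower. With FGF2 the lowest p of the 6 lists belonged to *Rbx1*, *Me1*, *Taldo1*, *Gstz1*, *Selenow* and *Oplah*, with FGF10 to *Sqstm1*, *Cbr3*, *Idh2*, *Mgst1*, *Selenop* and *Oplah*, each with an adjusted p of 1.00 (edgeR). For PBS against DMSO they were *Mafg*, *Ephx1*, *Idh1*, *Gstm2*, *Glrx5* and *Slc3a2*, also at 1.00. *Sqstm1*, the adaptor that draws KEAP1 into autophagy, was at 291 ± 62.9 CPM with PBS and 390.3 ± 79.5 with FGF10. *Me1*, malic enzyme, was at 27.6 ± 10.3 CPM with PBS and 46.1 ± 14.9 with FGF2.

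The spread between libraries was wide. The coefficient of biological variation common to all genes was 115% for SAG, 107% for FGF2, 115% for FGF10 and 117% for PBS against DMSO. An adjusted p above 0.05 in these fits does not show that a gene kept its level.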

How the data were processed

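RNA from cultured astrocytes was made into 3′-end libraries by the authors, who removed BC1 transcripts and set the number of PCR cycles per library. Reads were aligned with STAR, per the submitters' processing notes, which name the build GRCm38 and DESeq2. The annotation, the strand setting and any use of molecular identifiers are not given in the sources used here. The table deposited by the authors gives raw counts for each gene in 17 libraries, with no normalization applied. Of 56805 rows, 114 are spike-in sequences (at most 86 counts a library) and were left out. PCR copies may be among the counts, so counting intervals were not used. The methods call the replicates biological and describe them as pools of samples, and the labels do not tie them to animals. The p-values measure the spread between these libraries. For FGF2 the methods mention 3 replicates, and the 4 libraries with that label entered the fits.

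Each comparison was fitted on the libraries of its groups with edgeR 4.0.16 (limma 3.58.1, R 4.3.3): filterByExpr (minimum count 10, total 15), TMM, quasi-likelihood test, Benjamini-Hochberg adjustment over all genes tested, and a call at an adjusted p under 0.05. The SE was the log2 fold change over the root of F. Printed CPM use TMM factors over all 17 libraries. Groups do not overlap where their CPM ranges are apart. Exact two-sided permutation tests of mean CPM used scipy 1.17.1. DESeq2 1.42.0, its size factors, no filter, all libraries in 1 fit, a replicate block, the replicate sets and the removal of each library were alternatives. Markers of 7 cell types were summed as CPM.

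The members, lists, replicate sets and tests were chosen with earlier results of these data known. Values were given for genes called, up to 6 per comparison without overlap by lowest p, the regulators and NRF2 readouts, the 4 highest and 4 lowest levels, and the gene with the lowest p in each pathway list. *Prdx4* and the genes of the replicate sets were named after their values were seen, and other genes are given by range or group mean.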

Additional observations from a re-analysis of the deposited data

Results flagged for a closer look

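In the PBS and FGF2 groups (n = 4 each), the level of each of the 34 genes was checked for a single library whose gap to the nearest other, divided by the range of the group, exceeded Dixon's 95% limit for 4 values. Of 68 such checks 6 exceeded it. The limit is set for about 1 in 20 of independent groups, but the genes share the same libraries and each group holds both replicate sets. The count therefore cannot be read against that rate. PBS replicate 1 accounted for 4 of them. *Gpx8* was at 24.6 CPM there against 44.6 to 47.4 in the other PBS libraries, *Gstp1* at 10.2 against 33.2 to 36.2, *Prdx3* at 12.8 against 6.37 to 6.56, and *Nqo1* at 0 against 9.64 to 11.1. *Ftl1* was at 134 CPM in PBS replicate 3 against 186 to 194, and *Prdx2* at 263 CPM in FGF2 replicate 2 against 422 to 428. FGF2 replicate 2 had the smallest total, 17481727 counts. The part of depth in these values was not tested.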

How the results depend on the processing

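No fold change printed for a single gene changed sign. The median log2 fold change of the 34, near 0 for SAG (−0.01), did: it was 0.00 with DESeq2 or its size factors and 0.02 with the replicate block, and for FGF2 (0.12) it was −0.01 within replicates 3 and 4. Of the values under an alternative, 340 were labelled the same, 33 moved and 1 became a call. For a single gene the label means only that sign and call status held, whatever the size of the change. DESeq2 called 367 genes for SAG against DMSO (8 by edgeR), among them 1 of the 34, *Txn1* (log2 fold change 0.57), and 9, 37 and 126 of all genes for FGF2, FGF10 and PBS against DMSO (0 by edgeR). Without the filter on low counts edgeR called 76 genes for SAG and 36 for PBS against DMSO, the latter with 1 of the 34, *Txn1*. With all 17 libraries in 1 fit it called 4 and 1. Within replicates 1 and 2 alone, 14 of the 34 did not overlap for FGF2 and 12 for FGF10, and within replicates 3 and 4 alone 11 did for FGF2, with 2 libraries a group, where 33.1%, 33.5% and 36.0% of all genes did not overlap.

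With each library left out in turn, edgeR called 0 of the 34 in each comparison. All genes called for SAG ran from 1 (without DMSO replicate 1) to 7 (without SAG replicate 1), with 2 without SAG replicate 2 or 3 and 5 without DMSO replicate 2 or 3. Genes of the 34 without overlap ran from 11 to 13 for SAG (all genes 22.1% to 24.3%), 1 to 2 for FGF2 (4.51% to 5.19%), 1 to 7 for FGF10 (8.58% to 12.9%; 7 without FGF10 replicate 3, 5 without PBS replicate 1) and 2 to 6 for PBS against DMSO (10.2% to 13.5%; 6 without DMSO replicate 3 or PBS replicate 2). Their median log2 fold change for SAG ran from −0.12 (without SAG replicate 1) to 0.21 (without DMSO replicate 2), for FGF2 from −0.00 to 0.13, for FGF10 from 0.08 to 0.14 and for PBS against DMSO from 0.21 to 0.27. The log2 fold change of *Nqo1* for SAG ran from 3.45 to 11.3, the latter without DMSO replicate 2, where DMSO has no counts and the value is no bound.

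Same-numbered libraries were not paired by origin in the labels, and the correlations of their deviations from the group means were −0.01 to 0.00 for SAG and DMSO, 0.10 to 0.11 for FGF2 and PBS, 0.05 to 0.10 for FGF10 and PBS, and −0.01 to 0.00 for PBS and DMSO, so the numbers were not taken as pairs. Not every FGF2 library correlated best with the PBS library of its own number. A replicate block gave 0 calls among the 34 in all 4 comparisons and 12 calls among all genes for SAG, with 0 in the others. Genes under 30 CPM, with zeros in single libraries, limit what these depths can show.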
